A study of Homo sapiens with 6 samples.

Results

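Transcript levels after 12 h of all-trans retinoic acid (ATRA) were set against those of untreated NB4 cells, as the log2 value of the ATRA 12 h array minus that of the untreated array. NB4 is a human leukaemia line, derived from acute promyelocytic leukaemia, that carries the PML-RARA fusion. The series has 6 arrays of this line, 1 for untreated cells (0 h) and 1 each for 4, 12, 24, 48 and 72 h in 1e-06 M ATRA, and the comparison uses 2 of them. It covers the 41091 probe sets annotated with a single gene of the 54675 on the array, which stand for 19775 genes. Of these, 13594 reached the filter on low values (3.66, the median of all deposited log2 values) on at least 1 of the 6 arrays and were compared. In the gene lists below, genes said to pass or be above the filter are those compared. Of all compared genes, 648 were below the filter on both the untreated and the 12 h array. Each gene is represented by the probe set with its highest mean over the 6 arrays. There is 1 array a side, so no difference below has a replicate check or a p-value, and time in ATRA cannot be told apart from time in culture. In RNA of a whole culture, fewer cells of a type and less RNA per cell cannot be told apart either.

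In acute promyelocytic leukaemia the PML-RARA protein holds genes with retinoic acid response elements in a repressed state, and the myeloid programme stalls at the promyelocyte, the stage at which primary granules are filled. ATRA binds the retinoic acid receptor moiety of the fusion, releases its corepressors and leads to degradation of the protein, after which the cells mature toward neutrophils over several days. A sample taken at 12 h lies between the first retinoid-responsive transcripts and the mature phenotype.

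The label of the cells was checked first. MPO, the myeloperoxidase of primary granules and a promyelocyte marker, read 12.90 on the untreated array and 12.09 at 12 h, and AZU1 and PRTN3 read 9.32 and 10.76 on the untreated array. ELANE, neutrophil elastase, was below the filter on all 6 arrays, with 2.89 untreated and 3.15 at 12 h. KIT and SPINK2, other early markers, were below the filter too.

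The 12 h array stood apart in its 18S ribosomal RNA controls. The 3 probe sets for 18S ribosomal RNA averaged 8.63 there, against 5.20 on the untreated array and 5.32 to 5.88 on the 4 remaining arrays. Those for 28S ribosomal RNA differed from untreated too, the 5' probe set by 3.55, the middle one by 1.39 and the 3' one by 0.03, but here the 48 and 72 h arrays were nearly as high. The 5' one read 10.32 at 12 h, 9.51 at 48 h and 9.63 at 72 h, and the middle one 9.90, 9.83 and 9.80. Controls for GAPDH and ACTB messenger RNA averaged within 0.06 of the untreated array, and their 3' to 5' differences were 0.02 and 0.19 at 12 h against 0.06 and 0.26 untreated. The untreated and 12 h arrays shared a high level of the spiked hybridisation control bioC (8.01 and 8.11, against 6.88 to 7.17 on the rest). They also shared low levels of the other hybridisation controls. These were bioB (6.54 and 6.57, against 6.88 to 7.14), bioD (10.10 and 10.21, against 10.36 to 10.65) and cre (11.95 and 12.08, against 12.26 to 12.48). The spiked poly-A controls averaged lower at 12 h by the following differences: -0.30 for dap, -0.34 for lys, -0.32 for phe and -0.25 for thr. The part of these differences in the results below was not tested, other than by the rescaling described with the counts.

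**Figure D1:**
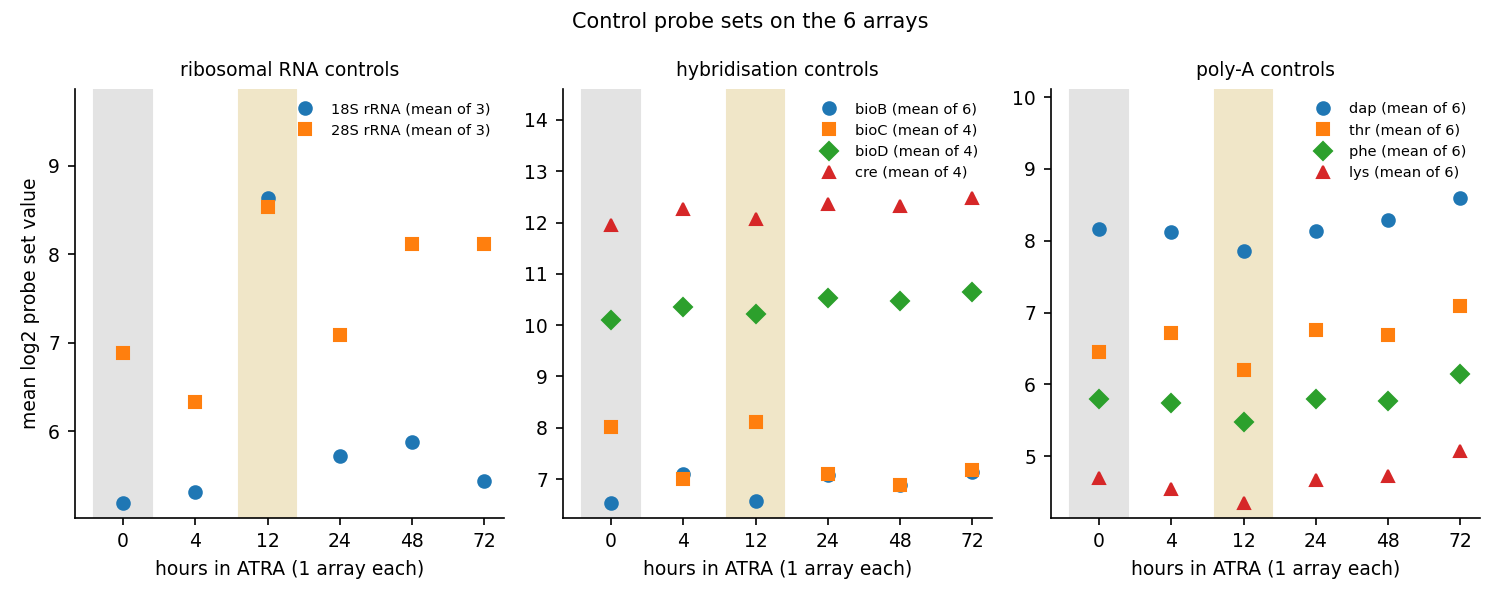
Mean log2 value of each family of control probe sets (vertical axis) on the 6 arrays (horizontal axis, hours in ATRA), with the untreated array shaded grey and the 12 h array shaded tan. The 18S ribosomal RNA point at 12 h (8.63) lies above those of all other arrays, and the 4 poly-A controls have their lowest points at 12 h. At 0 and 12 h bioC is high, and bioB, bioD and cre are low.

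At 12 h a difference of 2-fold or more from untreated cells was upward in 313 genes (2.3% of the 13594 compared) and downward in 263 (1.93%), 4.24% in all. These shares are the background for every list count below, and lists of 30 genes or fewer with none past 2-fold are near them. Most genes lay close to their untreated level: 85.2% were within 1.5-fold, the median difference was -0.06 and the SD of the differences over genes was 0.51. The higher genes reached further than the lower ones. With any value below the filter set to it, differences of 4-fold or more were upward in 91 genes and downward in 15. Differences of 8-fold or more were upward in 33 genes, 18 of them past 16-fold, and downward in none. Of the higher genes 279 were above the filter on both arrays and 33 were below it on the untreated array alone, and folds of such genes are given as at least a value. Among higher genes with several probe sets above the filter (176), 70 had all of them past 2-fold, and no gene had a probe set past 2-fold the other way. For lower genes these numbers were 147, 39 and 0.

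The split between higher and lower depends on how the arrays are scaled. Making the 24 poly-A control probe sets equal adds 0.30 to every difference, moves the median of all genes to 0.25 and gives 525 higher and 110 lower genes, so that 82.7% of counted genes are higher, against 54.3% as deposited. Equal hybridisation controls shift every difference by -0.15 and give 252 and 452 (35.8% higher), and leaving bioC out of them gives 269 and 355 (43.1%). Equal ribosomal protein and respiratory chain genes give 376 and 195 (65.8%). Gene list medians closer to 0 than these shifts therefore have no settled sign: 16 of 44 turned positive with equal poly-A controls and 8 turned negative with equal hybridisation controls. Counts of positive and negative differences in a list are given below as deposited and depend on the scaling in the same way. With a median of -0.06 as deposited, negative differences outnumbered positive ones over all compared genes. The order of genes is the same under all of these shifts, and the largest differences below exceed them many times.

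**Figure D2:**
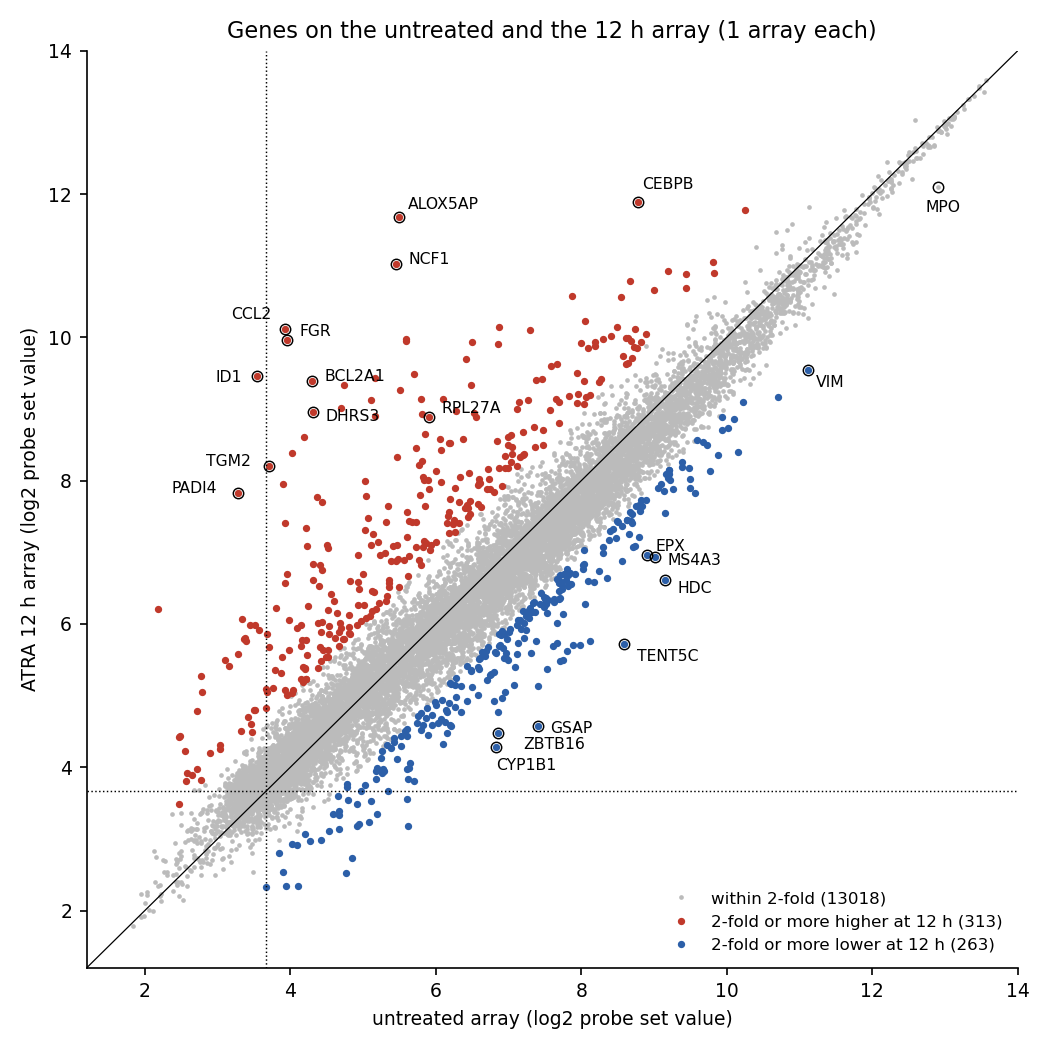
Log2 probe set value of each compared gene on the untreated array (horizontal axis) and on the ATRA 12 h array (vertical axis); red points are the 313 genes 2-fold or more higher, blue points the 263 genes 2-fold or more lower, and dotted lines mark the filter at 3.66. The red points reach further from the diagonal than the blue ones, with ALOX5AP, CCL2, FGR, ID1 and NCF1 the farthest of those labelled.

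Genes known to respond to retinoids were the group with the highest median. Of 20 genes listed, 15 passed the filter, 10 of these were 2-fold or more higher and none 2-fold or more lower, and their median difference was 1.38, against -0.06 over all genes. DHRS3, a retinaldehyde reductase, read 4.32 untreated and 8.95 at 12 h, 24.9-fold higher. TGM2, tissue transglutaminase, read 3.70 and 8.21, 22.8-fold higher, with 3 of its 4 probe sets past 2-fold. PRAM1, an adaptor named for its regulation by PML-RARA, read 5.59 and 9.95, 20.6-fold higher. ASB2, a substrate receptor of a ubiquitin ligase, read 4.70 and 9.01, 19.9-fold higher on this probe set, and its other probe set was higher by 4.67 in log2. CD38, an NAD-consuming surface enzyme, read 5.73 and 8.46, 6.61-fold higher.

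The retinoic acid hydroxylases, which clear the ligand, were faint on both arrays. CYP26A1 read 3.50 and 4.79, at least 2.19-fold higher, and CYP26B1 2.72 and 4.79, at least 2.18-fold higher with 1 of its 2 probe sets past 2-fold. PLAAT4, an acyltransferase also known as retinoic acid receptor responder 3, read 3.39 and 5.76, at least 4.27-fold higher. DHRS9, a retinol dehydrogenase, was already at 8.73 untreated and read 10.12 at 12 h, 2.61-fold higher on this probe set and past 2-fold on all 3. STRA6, the cell surface receptor for retinol-binding protein, read 5.35 and 6.57, 2.34-fold higher with 1 of 3 probe sets past 2-fold.

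The receptors themselves were within 2-fold: RARA read 5.85 untreated and 6.05 at 12 h, RARB 3.50 and 3.86, and RARG 5.69 and 6.07. These probe sets do not tell the fusion transcript from the normal one. PML read 7.40 and 7.30 on its main probe set, and none of its 9 probe sets was past 2-fold. Among 10 partners and corepressors of PML-RARA only ZBTB16, the transcription factor PLZF that is itself fused to RARA in a variant of the disease, was past 2-fold: it read 6.86 and 4.48, 5.19-fold lower.

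A retinoic acid response element of the DR5 type is a direct repeat of a hexamer with a spacer of 5 bases. The letters NGNTCANNNNNNGNTCA were searched on both strands in the 250 bases before the start of each gene (RefSeq promoters, GRCh38.p14). They were found in 0.608% of 27305 promoters and in 0.469% of the compared genes with a promoter in the table. Of the higher genes 2 of 247 held them, and of the lower genes 0 of 209. With a spacer of 2 bases the hexamers were found in 0 of 12 retinoid response genes, 0 of 247 higher and 1 of 209 lower genes. The DR5 letters were found in 2 of the 12 retinoid response genes with a promoter in the table. Both are printed because they are the ones found in that list, with the match in capitals, 5′ to 3′ along the gene.
RARB, chr3:25428200-25428236, plus strand: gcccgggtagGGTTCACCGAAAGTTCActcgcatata
STRA6, chr15:74212413-74212449, minus strand: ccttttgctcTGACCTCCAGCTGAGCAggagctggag
The RARB match ends 37 bases before the start and the STRA6 match 164 bases. In STRA6 the letters run on the strand opposite to the gene. STRA6 differed by 1.22 at 12 h, while RARB differed by 0.36 from a level below the filter. The match says nothing of binding, and the other 10 genes hold none in this window.

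ID1, a helix-loop-helix protein that binds its partners but not DNA, had one of the largest differences of all. It read 3.55 untreated and 9.46 at 12 h, at least 55.8-fold higher, with 9.54 at 4 h. Its relative ID2 read 5.82 and 8.28, 5.52-fold higher on this probe set and past 2-fold on both. ID genes are classical targets of bone morphogenetic protein signalling, and 17 of 20 listed genes of that and the TGF-beta pathway passed the filter, 3 higher and 2 lower. The third higher gene was SKIL, a repressor of SMAD proteins, which read 4.41 and 6.83, 5.34-fold higher. TGFBR1, the type I TGF-beta receptor, read 8.02 and 6.77, 2.37-fold lower, with 2 of 3 probe sets past 2-fold. TGIF1, a transcriptional corepressor, read 5.95 and 4.73, 2.33-fold lower, but only 1 of its 2 probe sets was past 2-fold and the probe set not shared between transcripts differed by 0.26 in the opposite direction. The SMAD genes lay within 2-fold, SMAD3 with the widest difference (6.72 and 7.36).

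The 15 genes with the largest differences upward among those measured on both arrays were led by ALOX5AP, the protein that presents arachidonic acid to 5-lipoxygenase. It read 5.50 untreated and 11.68 at 12 h, 72.6-fold higher. The enzyme itself, ALOX5, stayed near the filter at 3.67 and 3.81. CYP4F3, which inactivates leukotriene B4, read 2.17 and 6.21, at least 5.87-fold higher; a close paralogue could contribute to its probes. LTB4R, the leukotriene B4 receptor, read 6.01 and 7.14, 2.20-fold higher with 1 of 3 probe sets past 2-fold. PTGS1, the constitutive cyclooxygenase, read 5.06 and 7.48, 5.34-fold higher and past 2-fold on all 4 probe sets. Of 11 leukotriene and prostaglandin genes above the filter 4 were higher and none lower, with a median of 0.60, and the inducible cyclooxygenase PTGS2 was below the filter.

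The phagocyte NADPH oxidase makes superoxide from a membrane flavocytochrome (CYBB and CYBA) and cytosolic subunits that join it on activation. NCF1, the cytosolic organiser p47phox, read 5.45 untreated and 11.03 at 12 h, 47.7-fold higher; its single probe set is of the kind prone to cross-hybridisation, and NCF1 has near-identical pseudogene copies that its probes could also read. CYBB, the catalytic subunit, read 7.27 and 9.12, 3.60-fold higher. RAC2, the small GTPase of the complex in neutrophils, read 9.44 and 10.68, 2.36-fold higher. CYBA read 9.73 and 10.52, 1.73-fold higher, and NCF4, another cytosolic subunit, 8.04 and 8.12. Of 6 oxidase genes above the filter 3 were higher and none lower, with a median of 1.02. This median depended on the probe sets used. It was 0.77 with the mean of all probe sets of a gene. Without x_at and s_at probe sets, those prone to cross-hybridisation or shared between transcripts, it was 0.00085 over the genes left.

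Receptors and effectors of the mature neutrophil were higher in part. Of 23 such genes above the filter 9 were higher and none lower, and the median was 0.62 at 12 h, beside 0.41 at 4 h and 1.07 at 24 h against the same untreated array. PADI4, the peptidylarginine deiminase that citrullinates histones, read 3.28 and 7.83, higher by at least 4.17 in log2, on 2 of 3 probe sets. LRG1, a secreted leucine-rich glycoprotein of neutrophils, read 5.59 and 9.97, 20.9-fold higher. The calcium-binding pair S100A9 and S100A8, which together form calprotectin, read 5.16 and 9.44 (19.4-fold) and 3.90 and 7.95 (16.6-fold). Both were still far below their 24 h values of 11.16 and 11.37. The other probe set of S100A8 differed from untreated by only 1.02 at 12 h.

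CSF3R, the receptor for granulocyte colony-stimulating factor, read 6.20 and 8.53, 5.01-fold higher on this probe set and past 2-fold on both. The integrin chain ITGAM (CD11b) read 5.83 and 8.01, 4.50-fold higher, although only 1 of its 2 probe sets was past 2-fold. Its partner ITGB2 (CD18) read 8.19 and 9.88, 3.24-fold higher, with 2 of 3 probe sets past 2-fold, and ITGAX (CD11c) read 4.93 and 6.58, 3.15-fold higher. TNFRSF1B, a receptor for tumour necrosis factor, read 3.57 and 5.91, at least 4.75-fold higher. CXCR2, the interleukin-8 receptor, read 4.45 and 5.30, and ALPL, the alkaline phosphatase of mature neutrophils, was below the filter.

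Src-family and adaptor proteins couple such receptors to the cytoskeleton and the oxidase. FGR, a myeloid Src-family kinase, read 3.95 untreated and 9.96 at 12 h, 64.5-fold higher. SKAP2, an adaptor in integrin signalling, read 7.70 and 9.10, 2.64-fold higher, with 4 of 5 probe sets past 2-fold. TYROBP, an adaptor with an activation motif, read 6.25 and 7.45, 2.30-fold higher. LCP2 (SLP-76) read 7.22 and 8.37, 2.22-fold higher, but on only 1 of 5 probe sets. With PRAM1 these make 5 of 18 kinases and adaptors higher and none lower, and 17 of the 18 differences were positive as deposited (median 0.56). The smallest of these, FES (0.01), BTK (0.06) and SYK (0.10), are less in size than the shift of -0.15 with equal hybridisation controls. LYN read 7.71 and 8.54 and CSK 8.62 and 9.40, both within 2-fold.

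Other genes of the leading 15 had no list of their own. VSIR, the immune checkpoint receptor VISTA, read 4.18 and 8.61, 21.5-fold higher, on both of its probe sets. GNG2, a gamma subunit of heterotrimeric G proteins, read 4.74 and 9.34, 24.2-fold higher, but on 2 of 4 probe sets, the least of which differed by 0.36. TOGARAM2 read 4.02 and 8.38, 20.5-fold higher. Among genes that were below the filter in untreated cells, MERTK, a receptor tyrosine kinase for apoptotic cell uptake, read 3.34 and 6.07, at least 5.30-fold higher. PALLD, an actin-bundling protein, read 3.44 and 5.99, at least 5.01-fold higher on this probe set and past 2-fold on all 3. TGFA, a ligand of the epidermal growth factor receptor, read 3.38 and 5.81, at least 4.42-fold higher on 1 of 3 probe sets. The uncharacterised transcript LOC101929305 read 3.51 and 5.99, at least 5.01-fold higher.

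**Figure D3:**
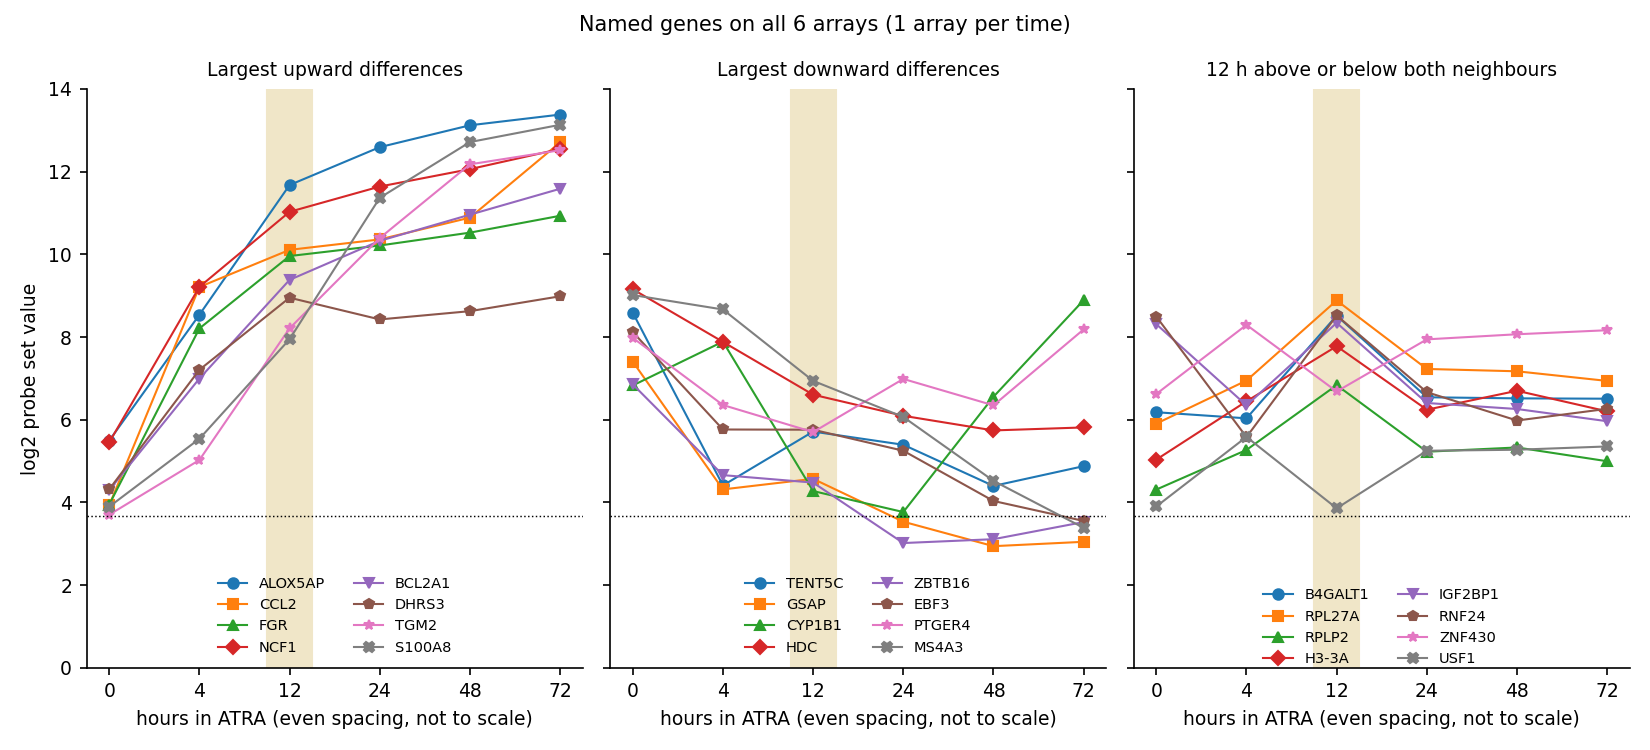
Log2 probe set value (vertical axis) of named genes on all 6 arrays (horizontal axis, hours in ATRA, 1 array per time, evenly spaced and not to scale), with the 12 h array shaded and the filter dotted. Left, 8 of the largest upward differences, with ALOX5AP at 5.50 untreated and 11.68 at 12 h; middle, 8 of the largest downward ones, in which CYP1B1 read 7.89 at 4 h and 4.28 at 12 h; right, 8 genes whose 12 h value lies 2-fold or more above or below both neighbours.

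Of 15 myeloid transcription factor genes 5 were past 2-fold upward and 2 downward, so the group as a whole did not move one way (median -0.02, and 0.28 with equal poly-A controls). CEBPB, a basic leucine zipper factor of granulocyte and macrophage genes, read 8.78 untreated and 11.89 at 12 h, 8.66-fold higher. CEBPE, the family member required for late granulocyte maturation, read 8.19 and 9.94, 3.35-fold higher. SPI1 (PU.1) read 7.11 and 8.20, 2.12-fold higher, and CEBPA, which acts earlier in the lineage, read 9.71 and 9.63. IRF1, an interferon-regulatory factor, read 5.77 and 8.21, 5.44-fold higher on this probe set and past 2-fold on both. EGR1, an immediate early zinc finger factor, read 6.95 and 8.18, 2.34-fold higher at 12 h with 2 of 3 probe sets past 2-fold, whereas at 4 h it had read 5.36. The other immediate early genes stayed within 2-fold, JUND (8.29 and 9.21) being the nearest to it.

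KLF4, a zinc finger factor of monocyte differentiation, was lower: it read 4.76 and 2.53, at least 2.14-fold, with both probe sets past 2-fold. KLF6 read 4.10 and 2.91, at least 1.35-fold lower once the value below the filter is set to it. GFI1, a repressor needed in granulocytes, read 8.10 and 7.42, and IRF8, a factor of the monocyte lineage, 6.80 and 6.23. MYC, which drives growth and ribosome production, read 11.77 and 11.19, a difference of -0.58, after 10.69 at 4 h. MYB, a factor of progenitors, read 10.94 and 10.17, after 8.92 at 4 h, and its other probe set differed by -1.66 at 12 h.

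The primary granule list, granule proteins of the promyelocyte together with linked genes such as protease inhibitors, went both ways. Of 12 above the filter 3 were higher and 3 lower, and the median of -0.26 turns to 0.041 when the poly-A controls are made equal. DEFA4, a defensin, read 5.79 and 9.14, 10.2-fold higher. SERPINB1, the inhibitor of neutrophil serine proteases, read 5.81 and 8.93, 8.66-fold higher on 3 of 4 probe sets. CFD, complement factor D, read 5.21 and 7.15, 3.84-fold higher. MS4A3, a membrane protein of promyelocytes, read 9.02 and 6.94, 4.22-fold lower on both probe sets. CST7, a cysteine protease inhibitor, read 9.50 and 8.02, 2.79-fold lower, and CTSG, cathepsin G, 6.83 and 5.59, 2.36-fold lower. The other 6 were within 2-fold, among them the granule proteins MPO, PRTN3 and AZU1, which read 12.09, 11.29 and 9.13 at 12 h, and SRGN, the granule proteoglycan serglycin, with 12.94 at 12 h.

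Secondary and tertiary granule genes, which are made later in normal maturation, showed no counted difference. None of the 14 compared was 2-fold or more higher or lower, against 4.24% of all compared genes. The median was -0.03, or 0.27 with equal poly-A controls. Of the 14, 5 were below the filter on both the untreated and the 12 h array, LTF among them. A difference in those could hardly be seen. LTF (lactoferrin) read 3.52 and 3.62 and LCN2 was below the filter on all arrays. CAMP, the cathelicidin precursor, read 5.58 and 5.99, and MMP9, gelatinase, 7.61 and 7.33.

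Genes of stem and progenitor cells were lower where they differed. Of 7 above the filter 2 were lower and none higher, with a median of -0.55. TERT, the catalytic subunit of telomerase, read 7.30 and 5.59, 3.28-fold lower on both probe sets. WT1, a zinc finger factor expressed in acute leukaemia, read 9.13 and 7.86, 2.42-fold lower on 1 of 2 probe sets. CD34, the classical progenitor marker, was faint at 4.26 and 3.89.

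CCL2, the chemokine that attracts monocytes, was the largest difference after ALOX5AP: it read 3.93 untreated and 10.11 at 12 h, 72.5-fold higher. Other cytokines differed much less. OSM, oncostatin M, read 4.68 and 6.01, 2.51-fold higher, and SPP1, osteopontin, read 4.53 and 5.85, also 2.51-fold higher. CXCL8, interleukin-8, read 8.03 and 9.07, 2.04-fold higher, with 11.63 at 24 h. TNF went the other way, from 8.80 to 7.22, 2.98-fold lower. Of 15 inflammatory cytokine genes above the filter 4 were higher and 1 lower (median 0.60), and IL6, CXCL1, CXCL2 and CXCL3 were below it.

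NF-kappaB is the transcription factor behind many inflammatory genes, and its inhibitors are among its own targets. ICAM1, an adhesion molecule, read 5.11 and 9.13, 16.2-fold higher on this probe set and past 2-fold on all 3. TNFAIP2 read 6.42 and 9.69, 9.67-fold higher, on 1 of 2 probe sets. TNFAIP3, the A20 protein that ends NF-kappaB signalling, read 8.05 and 6.28, 3.42-fold lower on both. The inhibitor NFKBIA read 8.34 untreated, 8.85 at 4 h, 7.60 at 12 h and 8.83 at 24 h, so 12 h was its lowest point of these on this probe set. Its other probe set differed from untreated by 0.15 at 12 h. The subunits NFKB1 (7.62 and 7.64), REL (6.26 and 6.42) and RELB (5.35 and 4.83) lay within 2-fold.

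BCL2A1, an anti-apoptotic relative of BCL2 expressed in neutrophils, read 4.30 and 9.38, 34.0-fold higher. BIK, a pro-apoptotic family member, read 4.16 and 5.77, 3.06-fold higher, and CASP1, the inflammatory caspase, read 5.39 and 6.87, 2.80-fold higher on this probe set and past 2-fold on all 5. TNFSF10, the death ligand TRAIL, read 5.60 untreated and 3.56 at 12 h, at least 3.85-fold lower, on 1 of 3 probe sets, and it read 11.05 at 72 h. BCL2 itself read 4.78 and 4.69 on its main probe set, but 1 of its 4 probe sets differed by -2.62. Of 21 apoptosis genes 3 were higher and 1 lower by their main probe set, and the median was 0.16.

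Of 25 interferon-stimulated genes 4 were higher and 1 lower (16% and 4%, against 2.3% and 1.93% of all compared genes). Their median of 0.14 is -0.005 with equal hybridisation controls. There were 12 genes below the filter on the untreated array, and 10 of these were below it at 12 h too. IFI6 read 4.15 and 5.70, 2.92-fold higher, while IFI35 (2.08-fold), IFIH1 (2.06-fold, on 1 of 3 probe sets) and IRF9 (2.06-fold) lay just past the threshold. HERC5, the ligase of the ubiquitin-like protein ISG15, read 6.16 and 4.48, 3.19-fold lower. Genes of antigen processing gave a more even picture, with all 15 differences positive as deposited, a median of 0.65 and 2 past 2-fold. The smallest, CIITA (0.08), is less in size than the shift of -0.15 with equal hybridisation controls, which give a median of 0.50. PSMB9, a catalytic subunit of the immunoproteasome, read 4.23 and 7.09, 7.27-fold higher, and TAP1, a peptide transporter subunit, 4.50 and 5.54, 2.07-fold higher. The class I heavy chains HLA-B (9.03 and 9.64) and HLA-C (9.83 and 10.57), whose probes may read each other's transcripts, were within 2-fold, and so was PSMB8 (7.94 and 8.73). The 23 genes of the standard proteasome held no gene past 2-fold, near the share over all compared genes (4.24%). Their median of -0.14 turns positive when the poly-A controls are made equal.

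**Figure D4:**
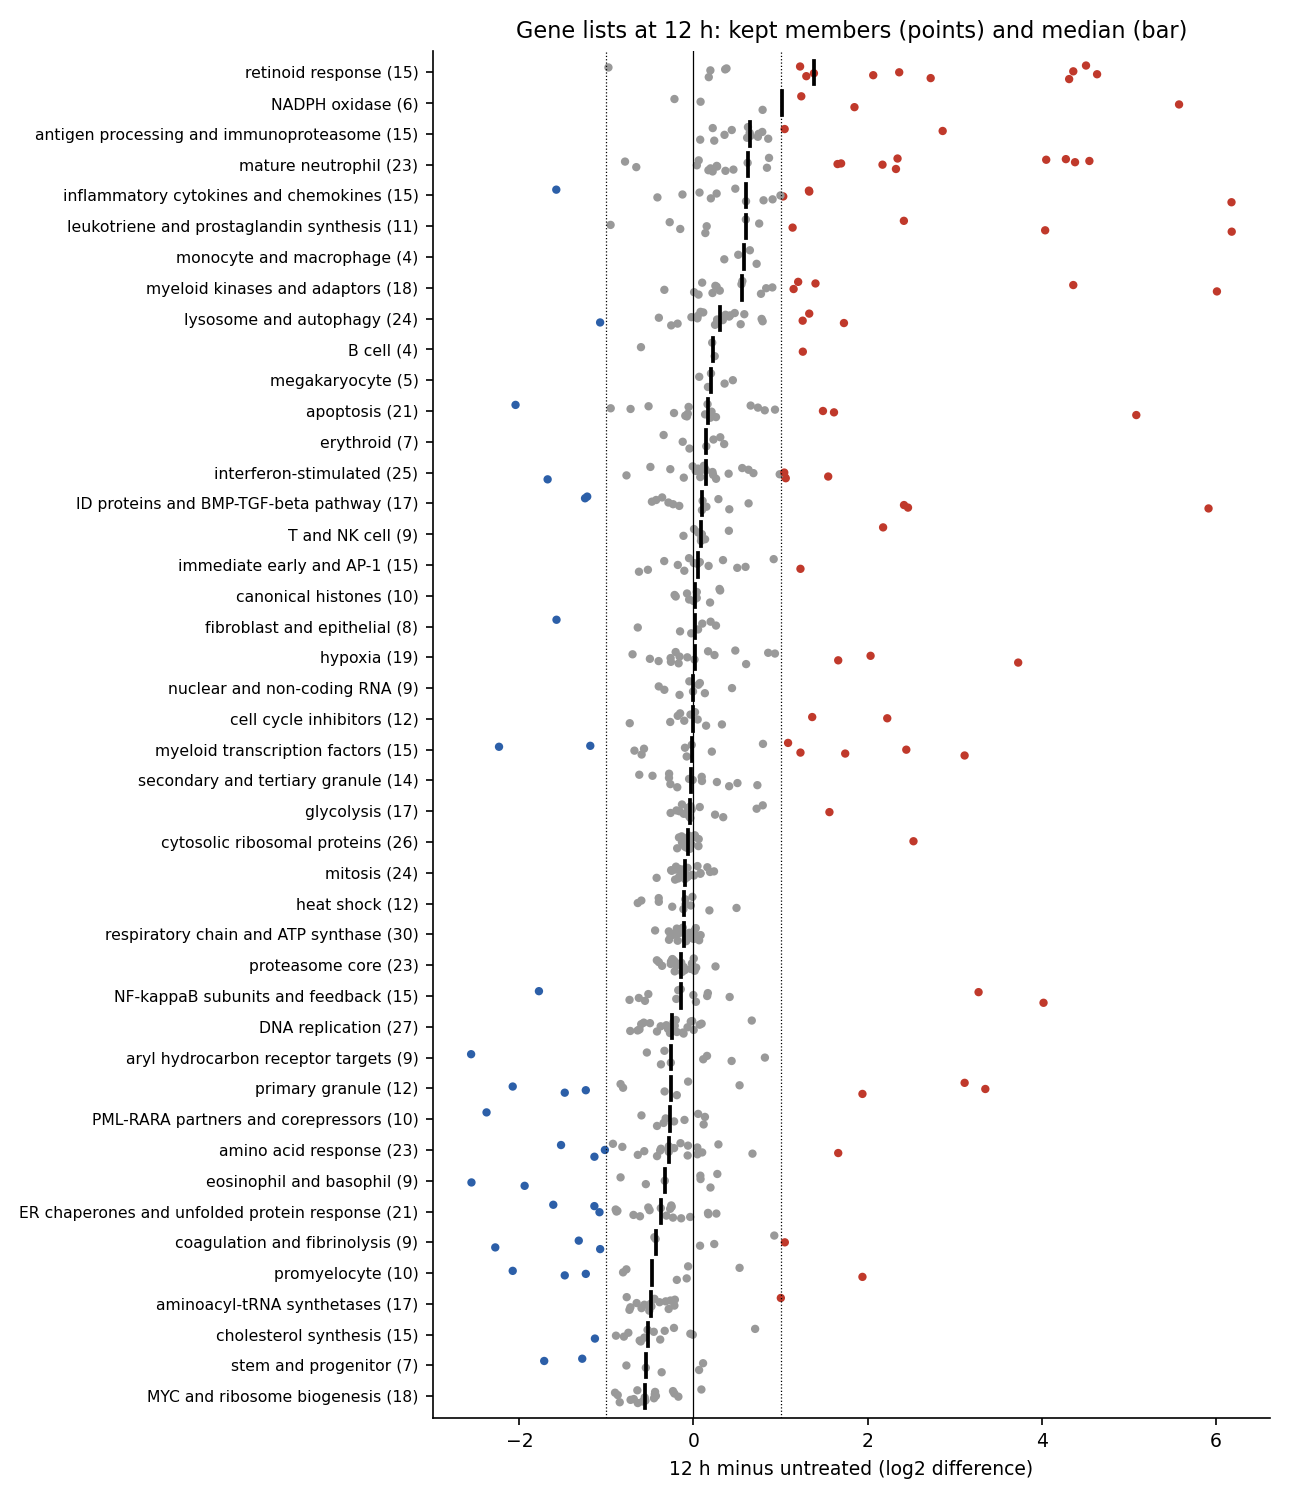
Difference between the 12 h and the untreated array (log2, horizontal axis) of every listed gene above the filter, in rows by gene list with the number of genes, red 2-fold or more higher, blue 2-fold or more lower, and black bars for list medians. Of these lists, chosen with earlier results of these data known, the retinoid response has the highest median (1.38). The MYC and ribosome biogenesis list has the lowest (-0.56).

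Genes of protein folding, tRNA charging, ribosome production and sterol synthesis had mostly negative differences at 12 h, which seldom reached 2-fold. These lists read high, with median untreated levels from 8.46 to 9.62. Genes with higher values lay lower in general: with a higher filter, which kept 8628 genes, the median of all genes was -0.17, against -0.06. How much of the list medians below is particular to these lists was not tested. The endoplasmic reticulum (ER) chaperones fold secreted and membrane proteins, and XBP1 and ATF6 raise them when unfolded proteins build up. Of 21 such genes 3 were lower and none higher, 18 differences were negative and the median was -0.38. At 4 h the median was 0.08 and at 24 h -0.60 against the same untreated array. XBP1 read 7.75 and 6.14, 3.05-fold lower. SDF2L1, an ER chaperone cofactor, read 7.85 and 6.71, 2.20-fold lower, and HERPUD1, of the ER degradation machinery, 8.51 and 7.43, 2.11-fold lower. The main chaperone HSPA5 (BiP) read 11.48 and 10.61, HSP90B1 10.09 and 9.20 and MANF 9.65 and 8.75, each between 1.83- and 1.86-fold lower. CALR (10.82 and 10.59) and CANX (10.95 and 10.91), the lectin chaperones, differed least of these.

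The ER stress response element consists of CCAAT and CCACG with 9 bases between them. The letters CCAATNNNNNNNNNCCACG, on both strands of the 250 bases before the start, were found in 0.0806% of the 27305 promoters (22 of them) and in 6 of the 20 ER genes with a promoter in the table. Among the 209 lower genes with a promoter only XBP1 held a match, and none of the 247 higher ones did. The share over the compared genes with a promoter was 0.129%. The matches of these 6 ER genes are printed with the element in capitals, along the gene.
HSPA5, chr9:125241381-125241419, minus strand: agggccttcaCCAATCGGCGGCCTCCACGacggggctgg
XBP1, chr22:28800593-28800631, minus strand: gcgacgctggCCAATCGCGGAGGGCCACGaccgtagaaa
HSP90B1, upstream match, chr12:103930206-103930244, plus strand: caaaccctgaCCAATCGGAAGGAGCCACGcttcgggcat
HSP90B1, downstream match, chr12:103930311-103930349, plus strand: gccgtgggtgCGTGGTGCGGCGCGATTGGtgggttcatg
CRELD2, chr22:49918544-49918582, plus strand: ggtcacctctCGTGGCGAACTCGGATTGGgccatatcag
CALR, chr19:12938374-12938412, plus strand: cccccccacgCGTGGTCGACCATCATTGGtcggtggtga
CANX, chr5:179698768-179698806, plus strand: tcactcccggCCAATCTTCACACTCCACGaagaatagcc
In CRELD2, CALR and the downstream match of HSP90B1 the element runs on the strand opposite to the gene. The 6 genes differed unequally at 12 h, from -1.61 for XBP1, -0.88 for HSP90B1, -0.87 for HSPA5 and -0.61 for CRELD2 to -0.24 for CALR and -0.04 for CANX. Holding the letters thus did not go with 1 size of difference.

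Aminoacyl-tRNA synthetases attach amino acids to their tRNAs. Of 17 genes 16 had negative differences, none of these past 2-fold, and the median was -0.48 at 12 h beside 0.00 at 4 h and -0.25 at 24 h. YARS1 (9.89 and 9.13), CARS1 (9.10 and 8.36) and LARS1 (10.21 and 9.55) were among the lowest. The exception was WARS1, the interferon-inducible tryptophanyl-tRNA synthetase, which read 8.64 and 9.65, just past 2-fold higher on 1 of 2 probe sets. The amino acid response, governed by ATF4, held 3 lower and 1 higher of 23 genes, with a median of -0.28 that turns to 0.019 when the poly-A controls are made equal. ASNS, asparagine synthetase, read 7.73 and 6.59, 2.20-fold lower, PSAT1 of serine synthesis 9.59 and 8.57, 2.02-fold lower, and the amino acid transporter SLC7A5 9.88 and 8.36, 2.87-fold lower. DDIT4, an inhibitor of the growth kinase mTORC1, read 10.67 at 12 h, 3.17-fold higher than untreated. ATF4 itself read 10.36 and 9.94.

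ATF4 acts through elements that join a CEBP and an ATF site. The letters TGATGNAA were found in 3.19% of all promoters, in 3 of 20 amino acid response genes and in 2 of 14 synthetase genes. They were also in 4 of 247 higher and 6 of 209 lower genes with a promoter, against 1.64% of the compared genes. The matches of the lower gene ASNS and of both synthetases are printed in capitals as examples; in AARS1 and IARS1 the letters run on the strand opposite to the gene.
ASNS, chr7:97872459-97872486, minus strand: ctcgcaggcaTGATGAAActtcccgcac
AARS1, chr16:70289676-70289703, minus strand: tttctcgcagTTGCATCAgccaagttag
IARS1, chr9:92293698-92293720, minus strand: tttcagcgcgTTGCATCAcctcc
AARS1 read 8.87 and 8.37 and IARS1 10.92 and 10.35, differences close to the median of their list. CHAC1, a response gene with a match of its own, read 3.78 and 3.82, so a match did not go with a difference there.

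The MYC and ribosome biogenesis list, nucleolar proteins and enzymes that make ribosomes, had the lowest median of all lists as deposited, -0.56. Of its 18 differences 17 were negative and none was past 2-fold. With cyclic loess, another scaling of the arrays, its median was -0.37 and that of the stem and progenitor list was lower (-0.44). RRP9 (7.69 and 6.79), POLR1B (8.49 and 7.62) and MRTO4 (9.57 and 8.73) differed most. The abundant nucleolar proteins NCL (11.65 and 11.10) and FBL (10.98 and 10.34) were lower by similar amounts. The same median was -0.35 at 4 h and -0.37 at 24 h.

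Cholesterol is made from acetyl-CoA by a pathway under the transcription factor SREBF2. Of 15 genes 14 had negative differences, 1 past 2-fold, and the median was -0.53, beside -0.23 at 4 h and 0.03 at 24 h. HMGCS1, an early enzyme of the pathway, read 9.39 and 8.25, 2.19-fold lower on 1 of 2 probe sets. LSS, which closes the sterol rings, read 8.25 and 7.36, after 8.48 at 4 h and before 8.43 at 24 h. INSIG1, the sterol-regulated brake of the pathway, read 10.05 and 9.25. The positive member was SREBF1 (6.66 and 7.37), the lipogenic relative. When the poly-A controls were made equal, the medians of these lists kept their sign but were smaller. They were -0.07 for folding, -0.18 for synthetases, -0.25 for ribosome biogenesis and -0.22 for sterol synthesis. With cyclic loess they were -0.19, -0.30, -0.37 and -0.33 in the same order, with a median of all genes of 0.01.

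**Figure D5:**
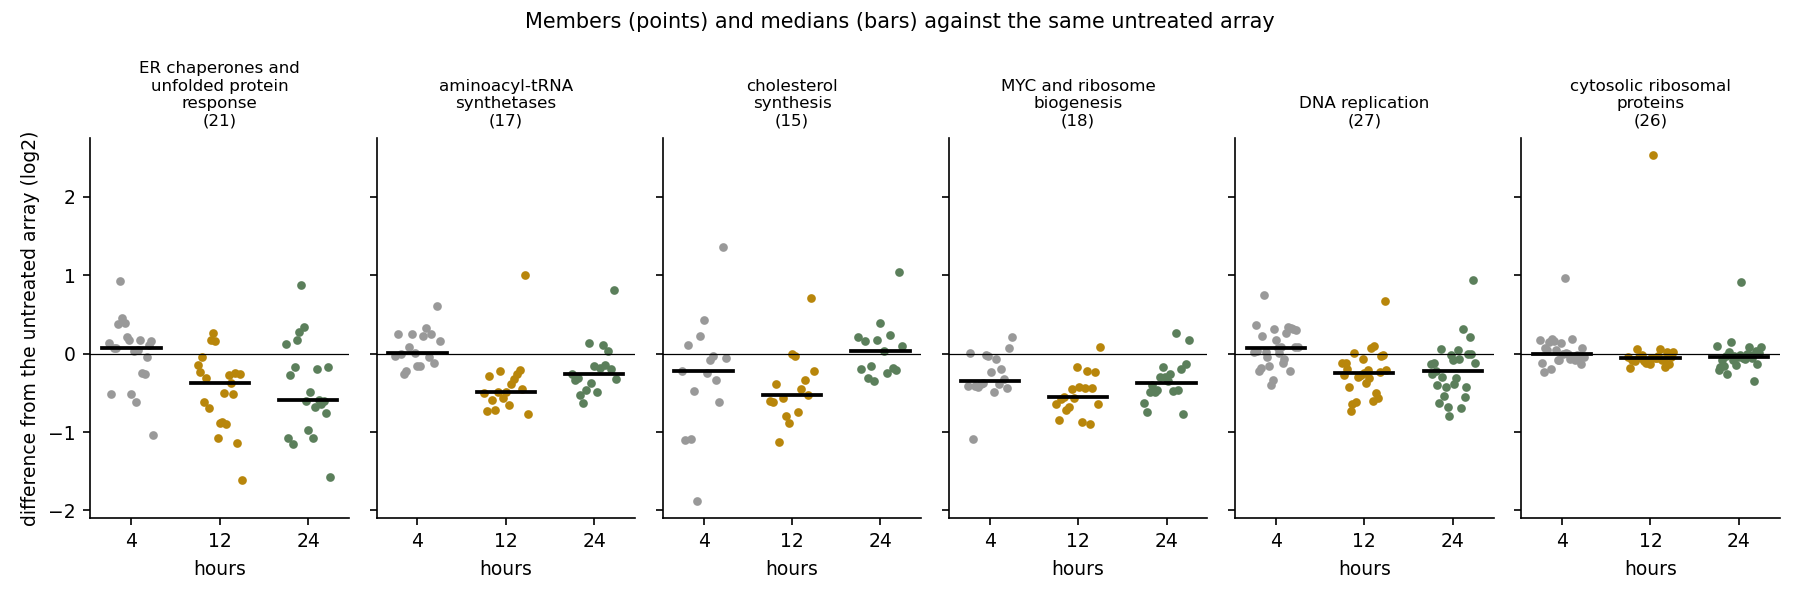
Difference from the untreated array (log2, vertical axis) of each gene of 6 lists at 4, 12 and 24 h (horizontal axis), with black bars for medians and the number of genes in brackets; all share the same untreated array. The synthetase median is 0.00 at 4 h, -0.48 at 12 h and -0.25 at 24 h, and the single high point at 12 h among the ribosomal proteins is RPLP2.

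Replication and division genes gave counts near the share over all compared genes (4.24% past 2-fold). None of 27 DNA replication genes was past 2-fold, and their median of -0.25 turns to 0.054 when the poly-A controls are made equal; GINS2, of the replicative helicase, read 9.13 and 8.41, and RRM2, of ribonucleotide reductase, 10.83 and 11.50. None of 24 mitosis genes was past 2-fold (median -0.10, positive with equal poly-A controls), CDK1 reading 10.48 and 10.36. Of 12 cell cycle inhibitors CDKN2D (p19) read 5.82 and 8.04, 4.68-fold higher on 1 of 2 probe sets, and GADD45A 6.58 and 7.94, 2.57-fold higher. CDKN1A (p21) read 5.02 and 5.34 and CDKN1B (p27) 7.36 and 6.63.

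Of 26 listed cytosolic ribosomal protein genes 25 lay between -0.19 and 0.06. The exception was RPLP2, 4.31 and 6.84, 5.76-fold higher; its probe set read far below the others of the list, whose median level was 12.50 untreated and 12.51 at 12 h. RPL27A, a ribosomal protein gene outside this list, read 5.91 and 8.89, 7.89-fold higher on its single probe set. The 30 respiratory chain genes held none past 2-fold, near the share over all compared genes (4.24%). Their median of -0.11 is positive with equal poly-A controls.

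Among the genes with the largest downward differences measured on both arrays, TENT5C, a poly(A) polymerase, read 8.59 untreated and 5.71 at 12 h, 7.34-fold lower, and 4.41 at 4 h. GSAP, gamma-secretase activating protein, read 7.41 and 4.57, 7.13-fold lower. CYP1B1, an enzyme of oestrogen and xenobiotic metabolism, read 6.83 and 4.28, 5.87-fold lower on 3 of 4 probe sets, although it had read 7.89 at 4 h. HDC, the histidine decarboxylase that makes histamine, read 9.16 and 6.61, 5.86-fold lower. EBF3, a transcription factor of the early B cell factor family, read 8.12 and 5.76, 5.14-fold lower on both probe sets. PTGER4, a prostaglandin E2 receptor, read 7.98 and 5.70, 4.86-fold lower on 1 of 2 probe sets.

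Next in size were CDC42EP3, an effector of the GTPase CDC42 (7.75 and 5.50, 4.77-fold, on 3 of 4 probe sets), KCNH2, a potassium channel (7.71 and 5.49, 4.66-fold), and FAM43A (7.80 and 5.62, 4.53-fold, on 1 of 2 probe sets). TRDV3, a T cell receptor delta segment, read 7.88 and 5.71, 4.52-fold lower. LRRC8C, of the volume-regulated anion channel, read 7.52 and 5.37, 4.46-fold lower on 3 of 4 probe sets, and CA2, carbonic anhydrase 2, 6.85 and 4.77, 4.25-fold lower. For genes below the filter at 12 h the fold is a lower bound and was not ranked with these. PGBD5, a transposase-derived protein, read 5.61 and 3.17, at least 3.86-fold lower, and PRSS12, a serine protease, 5.19 and 3.35, at least 2.89-fold lower. LDLRAD3, SOX18, CYTL1, IRS1 and XYLT1 were at least 2.39- to 2.73-fold lower.

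F3, tissue factor, the starter of coagulation that promyelocytic leukaemia cells expose, read 7.40 and 5.13, 4.85-fold lower. PLAUR, the urokinase receptor, read 7.24 and 5.92, 2.49-fold lower on 2 of 3 probe sets, and ANXA2, a receptor for plasminogen and its activator, 7.13 and 6.06, 2.10-fold lower on 1 of 3. PLAU, urokinase itself, read 6.44 and 7.49, 2.07-fold higher on this probe set and past 2-fold on both. These make 3 lower and 1 higher of 9 coagulation and fibrinolysis genes, with a median of -0.43. The size of this median depended on the setting, although it was negative in all of those tried. It ranged from -1.07 with a higher filter to -0.05 with the mean of all probe sets of a gene. With low values set to the filter it was -0.08. Over all compared genes 1.93% were lower and 2.3% higher.

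Genes of hypoxia, of the aryl hydrocarbon receptor and of lysosomes differed singly. BHLHE40, a repressor of the basic helix-loop-helix family, read 5.17 and 8.90, 13.3-fold higher on both probe sets, and NDRG1 7.38 and 9.41, 4.09-fold higher; with DDIT4 they were the 3 of 19 hypoxia genes past 2-fold (median 0.01, beside -0.51 at 4 h). ADM, adrenomedullin, read 7.21 untreated, 4.72 at 4 h and 7.82 at 12 h. CYP1A1, the leading aryl hydrocarbon receptor target, read 4.11 untreated, 9.04 at 4 h and 4.93 at 12 h, so CYP1B1 was the only one of 9 such genes past 2-fold (median -0.26, and 0.043 with equal poly-A controls). Of 17 glycolysis genes HK3, the hexokinase of myeloid cells, was past 2-fold (4.21 and 5.77, 2.95-fold higher). The lysosomal proteases CTSD (5.23 and 6.96, 3.31-fold) and CTSZ (6.15 and 7.40, 2.38-fold) were higher, CTSH lower (9.16 and 8.09, 2.10-fold). SQSTM1, an autophagy receptor, read 7.04 and 8.37, 2.51-fold higher on 2 of 4 probe sets, but -0.035 in log2 on the probe set kept when those shared between transcripts were left out. Of 24 lysosome and autophagy genes 3 were higher and 1 lower (median 0.30).

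Markers of other cells were checked over whole lists. Of 14 monocyte and macrophage genes 3 had no probe set of a single gene and 4 passed the filter. None of these was past 2-fold, but all 4 differences were positive, from 0.35 to 0.73 with a median of 0.58, close to the 0.62 of the mature neutrophil list. C1QA, C1QB, CD14, LGMN, MRC1, MSR1 and VCAN were below the filter, and CSF1R, the macrophage growth factor receptor, read 5.20 and 5.85. Eosinophil and basophil genes were present in untreated cells, PRG2 at 12.54 (12.21 at 12 h), and 2 of 9 were lower: HDC, described above, and EPX, eosinophil peroxidase, 8.90 and 6.96, 3.83-fold lower (list median -0.33). Of 9 T and NK cell genes PRF1, perforin, read 8.05 and 10.22, 4.52-fold higher on both probe sets, while CD3D, CD3E and CD3G read between 3.64 and 4.07 on both arrays. Of 4 B cell genes CD79A read 5.36 and 6.61, 2.39-fold higher, and MS4A1 was below the filter. The erythroid (7) and megakaryocyte (5) lists held no gene past 2-fold. In the fibroblast and epithelial list VIM, vimentin, which myeloid cells also express, read 11.12 and 9.54, 2.98-fold lower, and COL3A1 and CDH1 were below the filter.

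Some genes at 12 h lay outside the range of the 4 and 24 h arrays. The 12 h value was 2-fold or more above both in 10 genes and below both in 19. By the same measure the 4 h array lay outside its neighbours more often, above in 39 genes and below in 52. The 24 h array did so in 4 genes, all above, and the 48 h array above in 2 and below in 7. B4GALT1, a galactosyltransferase, read 6.18, 6.03, 8.52 and 6.54 at 0, 4, 12 and 24 h, with 3 of 5 probe sets past 2-fold against untreated. RPL27A, a ribosomal protein gene, read 5.91, 6.95, 8.89 and 7.23, and RPLP2 4.31, 5.27, 6.84 and 5.23. H3-3A, the variant histone H3.3, read 5.04, 6.45, 7.78 and 6.24, on a single probe set. MIF-AS1 (3.98, 4.41, 5.63 and 4.22), LOXL4, a lysyl oxidase (4.38, 4.84, 6.01 and 4.57, with 1 of 2 probe sets past 2-fold), and the mitochondrial gene ND6 (6.60, 6.29, 7.96 and 6.89) had the same shape. These 7 genes were 2-fold or more above untreated as well, on the array with the high 18S ribosomal RNA signal, whose part in them was not tested.

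The remaining 3 of the 10 were at their untreated level at 12 h: IGF2BP1, an RNA-binding protein, read 8.31, 6.35, 8.34 and 6.41, RNF24, a RING finger protein, 8.50, 5.58, 8.52 and 6.67, and RAB3IL1 6.00, 5.22, 6.25 and 5.24. Of the 19 below both neighbours 17 were within 2-fold of untreated. The transcription factor USF1 read 3.90, 5.59, 3.86 and 5.25, ZNF430 6.62, 8.30, 6.68 and 7.94, ZNF124 4.66, 6.10, 4.69 and 6.15, and TMED4, a cargo receptor of the secretory pathway, 8.12, 9.40, 7.93 and 9.30. FAM76A (6.12, 7.37, 5.50 and 6.96) and GDAP2 (5.68, 6.58, 5.16 and 6.40) had the same shape. Over all genes 2 read 2-fold or more above the remaining 4 arrays at both 0 and 12 h (IGF2BP1 and RNF24) and 6 below (CCL4, FAM20C, TMED4, USF1, ZNF124 and ZNF430), on the arrays that share the high bioC level; FAM20C is named after its values were seen. The exceptions among the 19 were TAGAP, a GTPase-activating protein, 6.34, 6.00, 4.76 and 5.99, which was 2.99-fold below untreated on 1 of 5 probe sets, and FAM20C, a secretory pathway kinase, 3.87, 6.38, 5.31 and 6.38. TIGAR, a regulator of glycolysis, read 5.56, 5.99, 4.62 and 5.82.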

How the data were processed

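The values deposited by the authors are log2 summaries of Affymetrix probe sets, made with RMA per the submitters' processing notes; its version was not given in the sources used here. RMA makes the arrays' distributions alike (medians 3.64 and 3.69), so a shift of most transcripts would be hidden. The number of arrays limits the precision. Symbols came from the platform annotation, and for 41037 probe sets they were renewed by Entrez identifier (GRCh38.p14 table). Of 54675 probe sets 1801 had several genes, 11777 none and 62 were controls; these were not used for genes.

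Differences were taken between the deposited log2 values of the 12 h and untreated arrays and counted at 2-fold or more, with no test. Folds with an end below the filter (3.66) use 3.66 for it. The 44 gene lists, the members and the named-gene rule were chosen with earlier results of these data known. The rule names the 15 largest upward and downward differences measured on both arrays, 8 each with an end below the filter, in each list at most 6 members with the widest difference (others where a role or count is spelled out), 10 genes each above or below the 4 and 24 h arrays, and CD38, CEBPE, CYP26A1, ELANE, ITGAM, MPO, MYC, PML, RARA and TGM2. Other settings tried were other scalings (cyclic loess with limma 3.58.1 in R 4.3.3), probe set choices, filters, baselines and thresholds. Counting was tested on simulated data. Python 3.11.15 and pandas 2.3.3 were used.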

Additional observations from a re-analysis of the deposited data

Results flagged for a closer look

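Signal outside the gene comparison was seen in the ribosomal RNA control probe sets. The 18S ribosomal RNA probe sets were higher at 12 h than untreated by 3.92 (3'), 2.82 (middle) and 3.57 (5') in log2, and those of 28S ribosomal RNA by 3.55 (5') and 1.39 (middle). The 28S values were nearly as high at 48 and 72 h, the 18S values were not.

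Some genes were 2-fold or more from untreated in opposite directions at 12 h and at a neighbouring time. The 12 h difference of CYP1B1 was -2.55 and its 4 h difference 1.06. For EGR1 these were 1.23 and -1.59, for RGS16, a regulator of G protein signalling, 1.03 and -1.20, and for NKD2, an inhibitor of Wnt signalling, -1.09 and 1.14. CD69, an early activation antigen of leukocytes, differed by -1.35 at 12 h and by 1.34 at 24 h. With 1 array per time, and a shared untreated array, none of these differences between times was tested.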

How the results depend on the processing

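Genes 2-fold or more higher (313) and lower (263) numbered 208 and 134 against a baseline averaged over the 0 and 4 h arrays, 719 and 1290 at 1.5-fold, 147 and 58 at 3-fold, and 525 and 110 with equal poly-A controls, an alternative chosen after seeing the data. Lower genes numbered 452 with equal hybridisation controls and 150 with the mean of all probe sets of a gene. Of 297 named genes 190 kept direction and side of the threshold without x_at and s_at probe sets, where many had no probe set left; SQSTM1 turned to -0.035 and TGIF1 to 0.26. With equal poly-A controls 28 of 44 list medians kept their sign, by the construction of the shift; the medians of PML-RARA partners (0.032), primary granule (0.041), DNA replication (0.054), aryl hydrocarbon receptor (0.043) and amino acid response (0.019) turned positive, and so did 11 that lay closer to 0. Among these were NF-kappaB subunits (0.16), heat shock (0.20), proteasome (0.16), mitosis (0.21), respiratory chain (0.20), cytosolic ribosomal (0.24), glycolysis (0.27), myeloid factors (0.28) and secondary granule genes (0.27). The PML-RARA partner median was 0.00573 without x_at and s_at probe sets, and that of eosinophil and basophil genes 0.079 with no filter. Cyclic loess changed the sign of 11 list medians, none over 0.15 in size as deposited, equal hybridisation controls of 8, and setting low values to the filter of none. No paired analysis was possible because each time has 1 array. Faint values near the filter are the least reliable.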

Other observations

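Beyond the listed groups, other genes past 2-fold at 12 h, chosen after their values were seen, include regulators of signalling and adhesion. Among those higher, LFNG, a glycosyltransferase that modifies Notch, differed by 3.76, CD52, a small glycoprotein of leukocytes, by 3.43, PXN (paxillin), of focal adhesions, by 3.27, and STING1, the adaptor of cytosolic DNA sensing, by 2.81, each on both of its probe sets. The hypoxia-inducible factor EPAS1 differed by 2.65 and CFP, properdin of the complement system, by 2.54. The chemokine receptors CXCR4 and CCR1 differed by 1.93 and 1.97, and PTAFR, the receptor for platelet-activating factor, by 2.20.

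Among those lower, HES1, a target of Notch, differed by -1.77 and JAG1, a Notch ligand, by -1.63, the latter on 4 of 6 probe sets. CD44, the hyaluronan receptor, differed by -1.65 on 8 of 9 probe sets, ZEB2, a zinc finger repressor, by -1.62 on all 3, and BCL11A, a transcription factor of B cells and progenitors, by -1.91 on 3 of 4. DNMT3B, a DNA methyltransferase, differed by -1.60 and ANPEP (CD13), a myeloid surface peptidase, by -1.28. These are values of single arrays, and no gene group is inferred from them.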
